A study of Homo sapiens with 12 samples.

Results

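RNA-seq was used to compare A375 cells that stably expressed YAP-2SA with A375 cells that carried the empty vector. A375 is an established human melanoma line. The comparison takes the 3 YAP-2SA libraries and the 3 Control libraries, which are 6 of the 12 libraries of the series, chosen by their labels. The other 6 libraries hold YAP-S127A and YAP-S127A,S94A, with 3 each, and they entered the fit so that all groups shared 1 estimate of the spread. Control cells were transduced with the MSCV-IRES-Hygro retrovirus alone, and YAP-2SA cells with the same vector carrying human YAP with the S127A and S381A changes. In every group transduced cells were selected with hygromycin, grown on plastic in DMEM with fetal bovine serum and glutamine, and lysed in TRIzol. The replicates are separate platings of 1 transduced line per construct, so the p-values measure the spread between platings, and an effect of the construct and a difference between the selected lines cannot be told apart. The titles give YAP-2SA as S127A,S381A, whereas the condition field and the design text of the records also list S94A for these samples.

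YAP is a transcriptional co-activator with no DNA-binding domain of its own, and it acts chiefly through the TEAD family of transcription factors. In the Hippo pathway the LATS kinases phosphorylate YAP at several serines, which holds it in the cytoplasm or marks it for degradation. Changing these serines to alanine yields a YAP that LATS cannot restrain, and changing the serine at position 94 yields a YAP that does not bind TEAD. In melanoma and other solid tumors YAP and its paralog TAZ, the product of WWTR1, are known for promoting invasion, metastasis and resistance to drugs.

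Values are FPKM, in which the fragments of a transcript are scaled to its length and to the size of the library, given as mean ± SD (n = 3) unless single libraries are listed. Differences are YAP-2SA minus Control of log2(FPKM + 1), so that for genes near 0 they are smaller than the log2 of the ratio of means. A gene was called upregulated or downregulated where the adjusted p of the limma fit was under 0.05 and the ratio of mean FPKM was over 2. Because RNA came from whole cultures, fewer cells that express a gene and less RNA per cell cannot be told apart.

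YAP1, the gene of the transgene, was read first as a check of the labels. Its level was 34.1, 33 and 172 FPKM in Control replicates 1, 2 and 3, and 129.7, 149 and 136 FPKM in the YAP-2SA libraries. Control replicate 3 was therefore above every YAP-2SA library, and YAP1 (chr11:101981178-102104155, GRCh37) did not pass the test (difference 1.23 ± 0.49 SE, limma adjusted p = 0.066). Without Control replicate 3 the difference was 2.01 with a limma adjusted p of 1.3e-07. Other genes of this library stayed with the Control group. Over the 888 loci called upregulated without it, Control replicate 3 lay a median 3.06% of the way from the other Control libraries to YAP-2SA, and over the 747 loci called downregulated it lay at -2.74%. The root mean square log2 difference of Control replicate 3 was 0.578 and 0.545 from the other Control libraries and 0.956 to 0.971 from the YAP-2SA libraries. Why its YAP1 level was high was not tested, and key values are repeated without it.

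The melanoma identity of the cells was checked against lineage markers. SOX10 and S100B were present in Control cells at 263 ± 25.6 and 46.9 ± 5.22 FPKM. In YAP-2SA cells they had fallen to 6.16 ± 1.44 and 0.807 ± 0.211 FPKM, so there these markers were low or near 0. MITF was present in both groups and rose, as given below. The pigment genes PMEL, MLANA, TYR, TYRP1 and DCT had mean levels under 1 FPKM in Control and in YAP-2SA cells. Of 10 markers of immune cells 8 were below the filter, with PTPRC listed at 0 in all Control libraries and MS4A1 at 0 in both groups. The other 2 are at loci with a second entry, CD68 at 80.2 ± 5.41 and 111 ± 4.72 FPKM with no call, and LYZ, which fell from 15.9 ± 1.38 to 2.51 ± 0.225 FPKM. Of 8 endothelial markers 1 passed the filter, TIE1, which rose from 0.174 ± 0.123 to 2.76 ± 1.0 FPKM. The endothelial markers PECAM1 and VWF and the epithelial markers EPCAM and CDH1 each stayed below 0.2 FPKM in all 6 libraries. Of 12 epithelial markers 7 were tested, and the keratin genes KRT5, KRT7, KRT8 and KRT18 rose while KRT14 and the CLDN4 locus fell. Of 8 fibroblast markers 4 were tested, and COL1A1 and the shared locus of PDGFRB and CSF1R rose, the latter from 2.61 ± 0.489 to 10.4 ± 2.06 FPKM, while THY1, FAP and COL3A1 stayed below the filter. The part of other cell types in the results was not tested.

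YAP-2SA cells differed widely from Control cells. Of 11788 protein-coding loci tested, 877 (7.44%) were upregulated and 789 (6.69%) were downregulated. The counts of every gene list below are to be read against these shares. The upregulated loci rose from a median of 1.59 to 7.81 FPKM, and the downregulated loci fell from a median of 6.95 to 1.46 FPKM. Changes of more than 8-fold were found at 243 upregulated and 208 downregulated loci, and changes of more than 32-fold at 88 and 81. A group of 35 upregulated loci went from a mean under 1 FPKM to over 10 FPKM, and 37 downregulated loci made the opposite move. The median difference over all tested protein-coding loci was 0.02. Adjusted p alone was under 0.05 for 3024 higher (25.7%) and 2355 lower (20%) loci. Without Control replicate 3 the counts were 888 (7.55%) and 747 (6.35%), and 848 of the 877 upregulated and 731 of the 789 downregulated loci were still called.

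**Figure D1:**
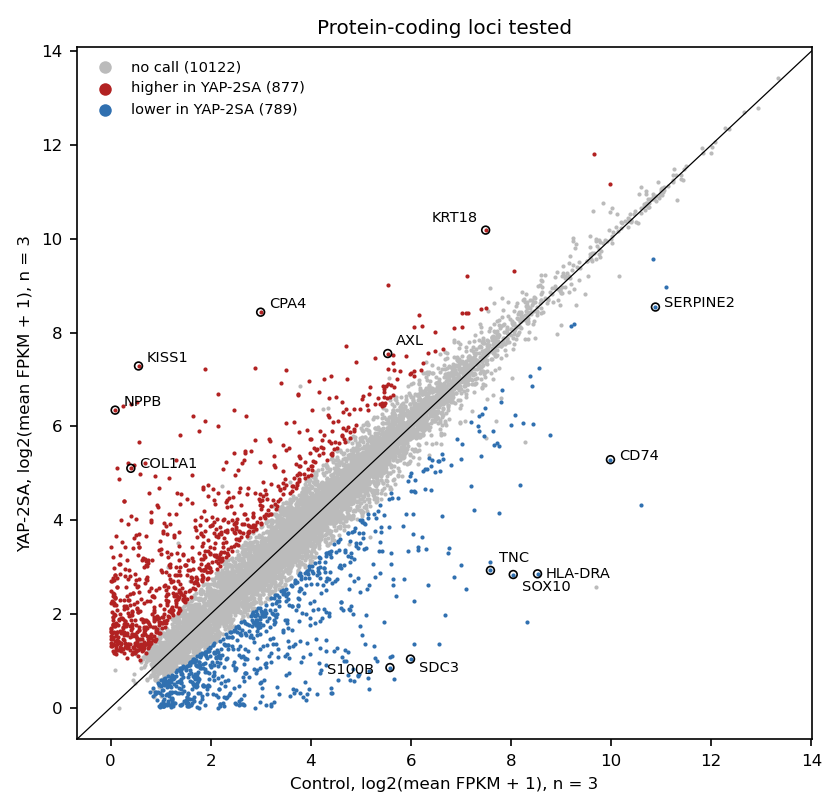
Each point is a protein-coding locus, with the mean of the 3 Control libraries on the x axis and of the 3 YAP-2SA libraries on the y axis, both as log2(mean FPKM + 1), and the line marks equal levels. The 877 upregulated loci (red) reach far above the line from Control levels near 0, as KISS1 and NPPB do, and the 789 downregulated loci (blue) include abundant transcripts such as CD74 and SERPINE2.

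Established target genes of YAP and TAZ were mostly upregulated. Of a published list of 22 target genes, all of which were tested, 16 were upregulated and 1 was downregulated, against 7.44% and 6.69% of all loci, and the median difference was 1.27 against 0.02 for all loci. The counts were the same without Control replicate 3. ANKRD1, a nuclear cofactor of the muscle ankyrin repeat family, was at 0.638, 1.26 and 0.335 FPKM in Control and at 13.6, 18.2 and 19.5 FPKM in YAP-2SA cells. CTGF, a secreted matricellular protein now named CCN2, was at 12.7, 12.2 and 12.7 FPKM in Control and at 52.1, 66.1 and 55.5 FPKM in YAP-2SA cells. The groups did not overlap for either gene, as for 31.3% of all loci in this direction and 25.6% in the other, and the ratios of means were 23.0 and 4.62 (limma adjusted p = 4.18e-07 and 4.85e-08).

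CYR61, the close relative of CTGF now named CCN1, is listed at a locus shared with an unnamed transcript, and that locus rose from 16.9 ± 2.48 to 106 ± 24.1 FPKM. F3, the tissue factor that starts coagulation, rose 13.3-fold from 1.25 ± 0.0474 to 16.6 ± 0.529 FPKM. The receptor tyrosine kinase AXL rose 4.11-fold, from 45.4 ± 4.10 to 187 ± 5.58 FPKM, and the BMP-binding membrane protein CRIM1 rose 5.03-fold to 128 ± 5.08 FPKM. These 4 loci were separated from Control in every library. TGFB2, CCDC80, AMOTL2, NUAK2, FJX1, FOXF2, MYOF, GADD45A, ARHGEF17 and LATS2 made up the rest of the upregulated members, with ratios between 2.13 for GADD45A and 9.55 for TGFB2. IGFBP3, which binds insulin-like growth factors, was the downregulated member, at 41.0, 52.6 and 48.3 FPKM in Control and 8.67, 9.47 and 8.28 FPKM in YAP-2SA cells. ASAP1, NT5E, DOCK5, PTPN14 and RBMS3 were not called.

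**Figure D2:**
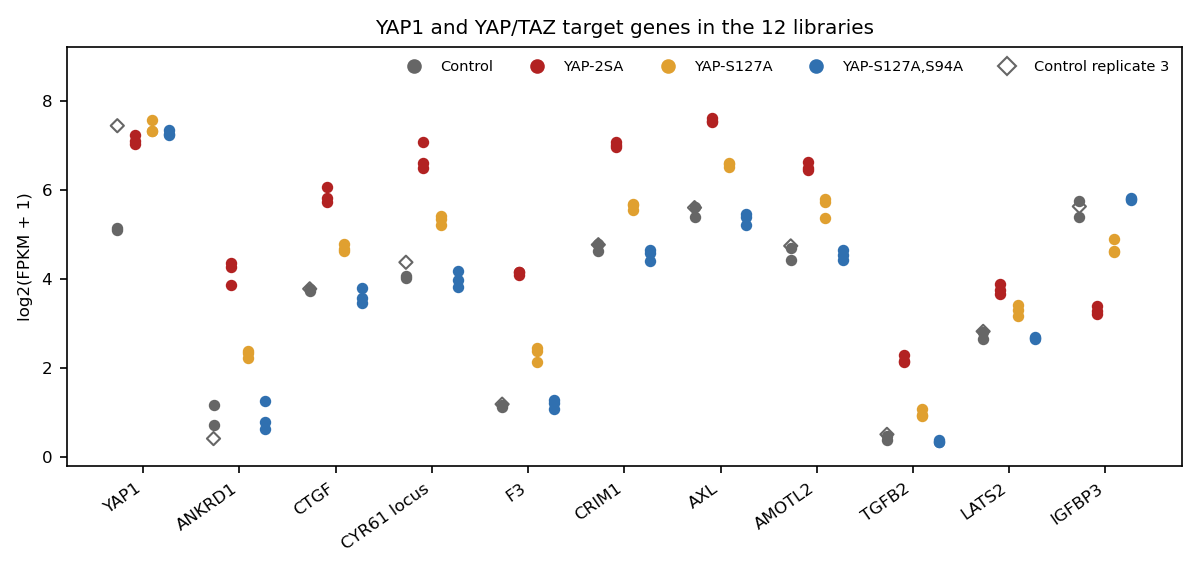
Levels of YAP1 and 10 of the YAP/TAZ target genes in all 12 libraries, as log2(FPKM + 1) on the y axis, with 1 point per library, colored by group, and Control replicate 3 drawn as an open diamond. Control replicate 3 is high for YAP1 at 172 FPKM but sits with the other Control libraries for the targets, and the YAP-2SA points are separated from Control for every target shown, including the downregulated IGFBP3.

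Because YAP reaches DNA through TEAD factors, the promoters of the called genes were searched for the core TEAD motif GGAATG on both strands, in the window from 250 bases before to 50 bases after each start site in the RefSeq promoter table (GRCh38.p14). Of the 10493 tested loci that list a single protein-coding symbol, 8443 (80.5%) had a promoter in the table. Of 940 promoters of upregulated genes 16.3% held the motif, of 920 promoters of downregulated genes 10.1%, and of all 12482 promoters 11.5%. These sets belong to 592, 540 and 8443 genes, so a gene with several promoters counts more than once. The AP-1 motif TGANTCA was held by 7.02%, 9.02% and 5.14% of these sets, and the E-box CACGTG by 6.60%, 6.85% and 9.18%. No test was made of these shares. A match is not evidence of binding, and TEAD sites in distal enhancers were not searched. The median GC content was 64.8%, 61.7% and 64.7%.

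The following stretches show where the TEAD motif lies in the promoters of some upregulated genes, picked as examples. Promoters of downregulated genes hold the motif as well, among them those of SYTL5, HLA-DMA and IGFBP5. The stretches are written 5′ to 3′ on the strand of the gene with the motif, or its reverse complement, in capitals. ANKRD1 holds 2 matches and CTGF 3, and each line puts 1 match in capitals, so the first 2 CTGF lines, which overlap, each show the other's match in lower case.
ANKRD1, chr10:90921198-90921227, minus strand: gacactgagtctGGAATGaaaattcacctg
ANKRD1, chr10:90921290-90921319, minus strand: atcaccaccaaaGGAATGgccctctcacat
CTGF, chr6:131951450-131951479, minus strand: ggaggaatgcgaGGAATGtccctgtttgtg
CTGF, chr6:131951459-131951488, minus strand: ggaaggtggggaGGAATGcgaggaatgtcc
CTGF, chr6:131951524-131951553, minus strand: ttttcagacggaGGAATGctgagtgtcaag
AXL, chr19:41226531-41226560, plus strand: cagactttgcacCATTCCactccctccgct
AJUBA, chr14:22976884-22976913, minus strand: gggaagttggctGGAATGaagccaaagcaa
CPA4, chr7:130293015-130293044, plus strand: tatcacttgaaaGGAATGggagaggcattg
GDF15, chr19:18385916-18385945, plus strand: gactcccaggctGGAATGgtgtcctcatat

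The genes of the Hippo pathway itself include both upstream regulators and targets of YAP. Of 27 tested components 8 (29.6%) were upregulated, against 7.44%, and 2 (7.41%) were downregulated, close to the 6.69% of all loci, with a median difference of 0.21. The upregulated members included the LIM proteins AJUBA and WTIP, which bind and inhibit LATS, at 50.9 ± 1.90 against 8.07 ± 0.503 FPKM and 13.6 ± 0.514 against 1.14 ± 0.341 FPKM. ARHGAP29 rose 9.71-fold, and the scaffold WWC1, which activates LATS, rose 9.44-fold. The angiomotins, which tether YAP outside the nucleus, were split. AMOTL2 rose from 23.6 ± 2.87 to 90.8 ± 5.64 FPKM, whereas AMOT fell from 10.7 ± 0.943 to 2.24 ± 0.284 FPKM and AMOTL1 fell 2.08-fold. Among the core kinases LATS2 was upregulated 2.19-fold, while LATS1 was at 5.67 ± 0.522 and 4.59 ± 0.527 FPKM and STK4, listed at a shared locus, at 19.9 ± 0.127 and 19.2 ± 0.765 FPKM, neither with a call.

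Of 7 tested genes of a list that holds TEAD factors and their cofactors 3 rose and 1 fell. The 3 became 1 without YAP-2SA replicate 2, where TEAD4 lost its call and VGLL2 was not tested. VGLL2 passed the filter only with all 3 YAP-2SA libraries. VGLL2, a TEAD cofactor of the vestigial-like family, was at 0, 0.134 and 0.0989 FPKM in Control and at 15.5, 8.32 and 11 FPKM in YAP-2SA cells. TEAD3 rose 3.24-fold to 9.17 ± 0.560 FPKM. TEAD4 rose from 20.3 ± 1.15 to 40.9 ± 0.499 FPKM, a ratio of 2.01 that fell under the fold threshold without Control replicate 3, and TEAD1 was at 13 ± 1.39 and 16.3 ± 1.69 FPKM with no call. WWTR1, which encodes TAZ, was downregulated from 193, 189 and 216 FPKM to 61.7, 56.3 and 58.3 FPKM (limma adjusted p = 9.47e-09). The AP-1 family, which shares many enhancers with TEAD, had 5 upregulated and 4 downregulated members of 13 tested. JUN rose 6.67-fold to 32.3 ± 3.19 FPKM, FOSL2 rose 9.16-fold to 26.0 ± 2.72 FPKM and FOSL1 rose 2.63-fold to 339 ± 35.5 FPKM, while FOS fell 10.2-fold to 0.382 ± 0.0913 FPKM and MAF, a large bZIP factor, fell 40.9-fold to 0.226 ± 0.0783 FPKM.

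The largest rises were at genes with mean levels of 0.0639 to 6.98 FPKM in Control cells. They were chosen among called loci that list a single protein-coding symbol and whose Control and YAP-2SA libraries do not overlap. The 15 with the largest rise were KISS1, NPPB, MME, BASP1, CPA4, C19orf33, ALPP, SH3GL2, CXCL14, TNNC1, COL1A1, TNFSF18, GDF15, UNC13D and PTX3. KISS1 (chr1:204159469-204165619, GRCh37), which encodes the metastasis suppressor peptide kisspeptin, was at 0.698, 0.132 and 0.581 FPKM in Control and at 154, 148 and 163 FPKM in YAP-2SA cells (difference 6.75 ± 0.17 SE, limma adjusted p = 6.8e-10). NPPB, the precursor of B-type natriuretic peptide, was at 0.0852, 0 and 0.106 FPKM in Control and at 61.7, 90.2 and 89.1 FPKM in YAP-2SA cells. MME, the membrane peptidase neprilysin, was at 0.132, 0.149 and 0.273 FPKM in Control and at 84.2, 104 and 68.3 FPKM in YAP-2SA cells. In all 3 genes every YAP-2SA library was above every Control library by more than 100-fold.

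CPA4, a secreted carboxypeptidase, reached the highest level of the 15, at 363, 319 and 354 FPKM against 6.25, 6.77 and 7.93 FPKM in Control. BASP1, a membrane-bound signaling protein of neurons, rose 209-fold to a range of 83.3 to 98.5 FPKM. ALPP, the placental alkaline phosphatase, rose 102-fold, and the cardiac troponin gene TNNC1 rose 92.9-fold. The chemokine CXCL14 rose from 0.263 ± 0.183 to 36.0 ± 6.44 FPKM, the stress-responsive cytokine GDF15 rose 34.7-fold, the pattern recognition protein PTX3 rose 34.0-fold, and TNFSF18, the ligand of GITR, rose 227-fold. SH3GL2 and UNC13D, which act in membrane traffic, rose 361-fold and 60.2-fold. Folds against Control means this close to 0 are imprecise.

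The largest falls were at genes with mean levels of 34.5 to 1014 FPKM in Control cells. By the same rule the 15 were HLA-DRA, SOX10, SYTL5, SDC3, TFAP2B, S100B, S100A1, CD74, FXYD3, TNC, TGFA, PMEPA1, SLC26A2, GAS7 and NFATC2. SOX10 (chr22:38366693-38383429, GRCh37), the transcription factor that specifies the neural crest and melanocyte lineage, was at 234, 274 and 281 FPKM in Control and at 4.53, 7.25 and 6.69 FPKM in YAP-2SA cells (difference -5.22 ± 0.15 SE, limma adjusted p = 1.5e-09). HLA-DRA (chr6:32407655-32412823, GRCh37), the invariant alpha chain of HLA-DR, was at 353, 392 and 360.3 FPKM in Control and at 5.89, 7.12 and 5.69 FPKM in YAP-2SA cells. TNC, the matrix glycoprotein tenascin C, was at 177, 193 and 205 FPKM in Control and at 6.03, 6.79 and 7.01 FPKM in YAP-2SA cells. The Control libraries exceeded the YAP-2SA libraries by more than 20-fold in each of these genes.

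TFAP2B, an AP-2 transcription factor of the neural crest, fell 112-fold to between 0.272 and 0.346 FPKM, and SYTL5, a Rab27 effector, fell 94.5-fold. The cell-surface proteoglycan SDC3 fell 59.7-fold, and PMEPA1, a feedback inhibitor of TGF-beta signaling, fell 62.1-fold. S100A1, a calcium-binding protein like S100B, fell 34.7-fold, while the ion transport regulator FXYD3 fell 41.8-fold and the sulfate transporter SLC26A2 fell 25-fold. GAS7 and NFATC2 fell 49.1-fold and 39.8-fold. All 30 genes named for the size of their change kept an adjusted p under 0.05 with any 1 of the 6 libraries left out. The same libraries chose these genes, so this count gives no independent support.

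**Figure D3:**
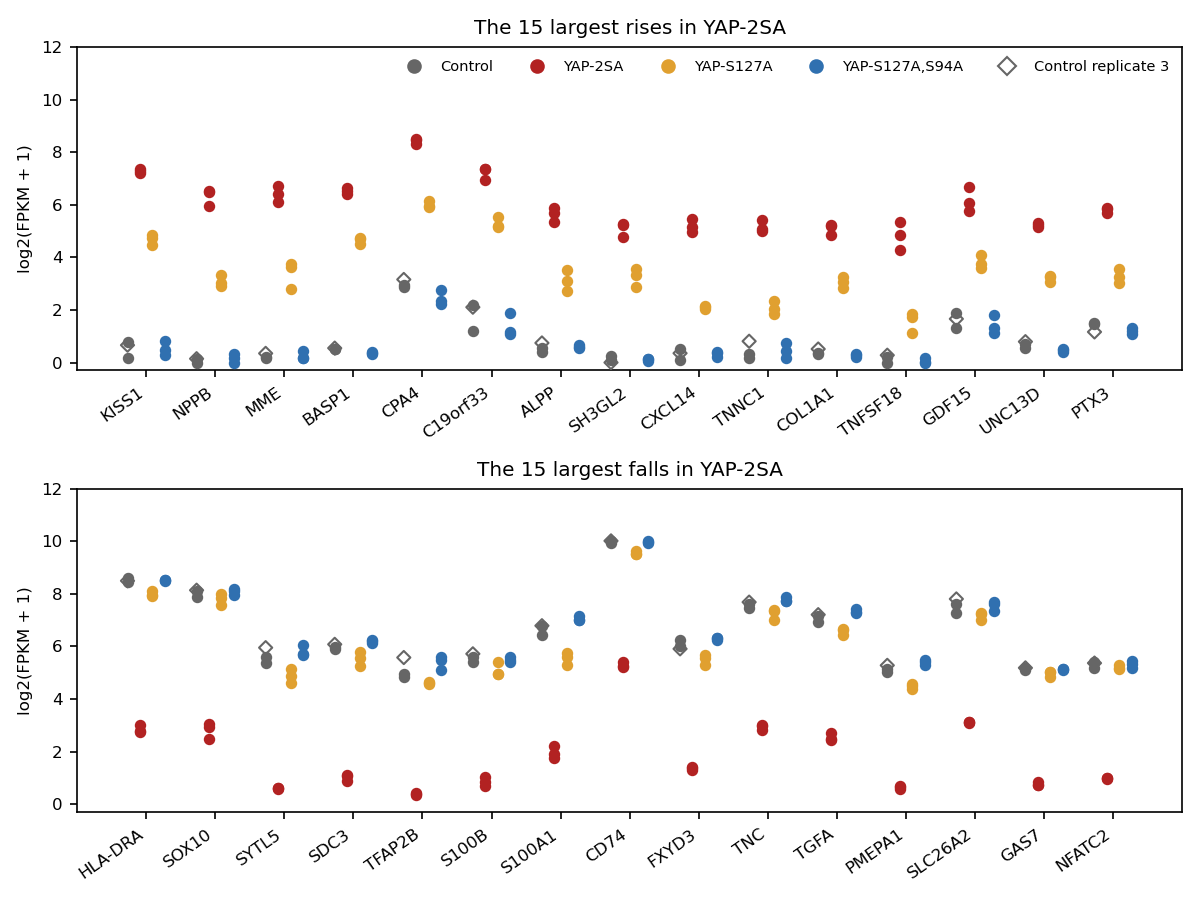
The 15 genes with the largest rise (top) and the 15 with the largest fall (bottom) in YAP-2SA cells, as log2(FPKM + 1) on the y axis, with 1 point per library in all 4 groups and Control replicate 3 as an open diamond. YAP-2SA and Control points are apart for all 30 genes because the rule that chose these genes required it. For the rises the YAP-S127A points lie between those of Control and YAP-2SA, as for KISS1 at 24.9 FPKM.

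Several loci that list more than 1 gene moved as far as these, and reads of their genes could not be separated. The locus of HLA-DRB1, HLA-DRB5 and HLA-DRB6 fell from 1548 ± 329 to 18.9 ± 15.1 FPKM, with YAP-2SA libraries at 4.29, 34.4 and 18.0 FPKM. The locus of the protease inhibitors SERPINA3 and SERPINA5 fell 126-fold from 319 ± 91.2 to 2.53 ± 0.738 FPKM. ITGB3, the integrin beta 3 subunit, listed with C17orf57, fell 60.3-fold from 93.4 ± 10.5 to 1.55 ± 0.274 FPKM. The locus of CAV1 and CAV2, the caveolins, rose 11.3-fold from 45.8 ± 0.925 to 518 ± 32.5 FPKM.

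Genes of the actin cytoskeleton and focal adhesions were mostly higher in YAP-2SA cells. Of 57 tested members 22 were upregulated and 1 was downregulated, with a median difference of 0.61. PDLIM1, which links alpha-actinin to signaling proteins, was at 22.2, 20.3 and 32.8 FPKM in Control and at 197, 227 and 199 FPKM in YAP-2SA cells. NEXN, an actin-binding protein, rose 18.7-fold to 11.7 ± 1.02 FPKM, the regulatory light chain MYL9 rose 6.54-fold to 20.7 ± 1.95 FPKM and TAGLN, or transgelin, rose 6.32-fold to 15.7 ± 2.76 FPKM. Abundant members moved less. VCL, which encodes vinculin, rose 2.54-fold to 61.2 ± 0.992 FPKM and FLNA, filamin A, rose 2.02-fold to 366 ± 13.9 FPKM, a ratio close to the threshold whose call was lost under other scalings, while the ACTB locus was at 1540.5 ± 190.2 and 2213 ± 130.3 FPKM with no call. The downregulated member was SVIL, supervillin, at a shared locus, which fell 8.14-fold. Among 20 tested targets of SRF, the serum response factor that shares part of this program, 11 were upregulated and 3 were downregulated (median 1.02). Those 3 were the immediate early genes EGR1, EGR3 and FOS, and EGR1 fell from 16.3 ± 2.83 to 1.76 ± 0.223 FPKM.

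Coat genes of caveolae, the membrane pits that buffer tension, had 4 upregulated loci of 7 tested and none downregulated, with a median of 1.29. In the limma fit no member was lower at an unadjusted p under 0.05 either. Besides the caveolin locus, PTRF, or cavin 1, rose 2.45-fold to 343 ± 22.8 FPKM, and EHD2, which stabilizes the pits, rose 3.87-fold to 74.2 ± 3.28 FPKM. SDPR, or cavin 2, was listed at 0 in all 3 Control libraries and at 1.38, 2.17 and 2.11 FPKM in YAP-2SA cells. It passed the filter through the YAP-2SA libraries alone, so it could be called only as a rise and adds nothing to the direction of the list.

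The genes of the extracellular matrix moved in both directions. Of 20 tested collagens 5 were upregulated and 8 were downregulated, with a median of -0.45. COL1A1, the alpha 1 chain of fibrillar type I collagen, was at 0.301, 0.236 and 0.428 FPKM in Control and at 36.3, 36.0 and 27.9 FPKM in YAP-2SA cells, whereas its partner chain COL1A2 was at 0.0276 ± 0.0240 and 0.366 ± 0.323 FPKM and was not tested. COL12A1 rose 5.09-fold and COL5A2 rose 3.72-fold to 72.4 ± 3.76 FPKM. COL9A3 fell 4.61-fold from 216 ± 18.4 FPKM, COL6A1 fell 3.05-fold from 41.2 ± 0.850 FPKM, and COL4A1, of the basement membrane, fell 2.30-fold from 74.2 ± 7.12 FPKM.

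Of 37 tested laminins and matrix glycoproteins 15 were upregulated and 6 were downregulated (median 0.13). The laminin chains were split, with LAMA5, listed with a microRNA, up 8-fold to 43.7 ± 2.31 FPKM and LAMA4 down 7-fold to 4.82 ± 1.54 FPKM. NOV, also known as CCN3, rose 13.9-fold to 24.8 ± 2.79 FPKM. MGP, an inhibitor of calcification, fell 86.3-fold and SPARC, which binds collagen, fell 2.10-fold from 586 ± 51.9 FPKM. FN1, which encodes fibronectin, was at 10.7, 10.5 and 22.9 FPKM in Control and at 6.81, 6.99 and 7.42 FPKM in YAP-2SA cells, and its fall was no longer called without Control replicate 3, the library at 22.9 FPKM. Of 16 tested proteoglycans 4 rose and 4 fell. Biglycan, encoded by BGN, rose 12.6-fold to 121 ± 13.1 FPKM and SDC1 rose 3.42-fold, opposite in direction to SDC3.

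Enzymes that remodel the matrix were divided as well. Of 31 tested proteases, lysyl oxidases and inhibitors 8 were upregulated and 10 were downregulated (median -0.07). The 8 became 4 without any 1 of the YAP-2SA libraries. Genes that passed the filter through those libraries alone, such as LOXL1, were not tested there. LOXL2, which crosslinks collagen, rose 3.22-fold to 114 ± 5.95 FPKM and LOXL1 was listed at 0 in all Control libraries and at 4, 3.60 and 3.44 FPKM in YAP-2SA cells, while LOXL4 fell 4.24-fold to 47.6 ± 6.11 FPKM. MMP2, the gelatinase, fell 2.44-fold to 37.4 ± 2.45 FPKM and the serine protease HTRA1 fell 25.1-fold to 0.997 ± 0.0778 FPKM. The inhibitors TIMP2 and TIMP3 moved in opposite directions, with TIMP2 up 3.15-fold to 99.9 ± 0.910 FPKM and TIMP3 down 2.53-fold to 63.2 ± 2.05 FPKM. Of 15 tested genes of plasminogen activation and coagulation 8 rose and 1 fell (median 1.12). The fall was that of SERPINE2, an inhibitor of thrombin and plasminogen activators, from 1709, 1882 and 2083 FPKM to 369, 384 and 365 FPKM, and the rises included F3, its inhibitor TFPI, and the thrombin receptor F2R at 2.35-fold.

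Of 17 tested integrin subunits 3 were upregulated and 5 were downregulated (median -0.43). ITGB4, the beta subunit of the laminin receptor of hemidesmosomes, was at 3.91, 2.59 and 3.84 FPKM in Control and at 59.6, 72.9 and 57.3 FPKM in YAP-2SA cells, while its partner ITGA6 fell 2.57-fold from 98.9 ± 1.22 FPKM. ITGA3 rose 2.36-fold to 189 ± 11.8 FPKM. ITGA9 fell 41.6-fold, and the ITGB3 locus was given above. ITGB1, which pairs with most alpha chains, was at 119 ± 7.06 and 156 ± 4.23 FPKM, and ITGAV was at 15.3 ± 1.34 and 11.2 ± 0.437 FPKM, neither with a call.

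Ligands and receptors of growth factor signaling moved in both directions. TGFA, a ligand of EGFR, fell from 121, 142 and 147 FPKM to 4.37, 4.51 and 5.52 FPKM. The EGF family ligands NRG1, HBEGF and AREG rose. NRG1, a ligand of ERBB3 and ERBB4, was at 0.997, 0.620 and 0.892 FPKM in Control and at 27.7, 31.3 and 30.8 FPKM in YAP-2SA cells. HBEGF rose 5.69-fold to 13.9 ± 1.77 FPKM and AREG rose 7.71-fold to 3.39 ± 0.763 FPKM, so 3 of 6 tested ligands were upregulated and 1 was downregulated. By limma adjusted p under 0.05 alone 2 ligands were lower, TGFA included. Among 29 tested loci of receptor tyrosine kinases 6 rose and 9 fell (median -0.11). The EGFR locus rose 9.28-fold to 42.0 ± 5.43 FPKM, MET rose 2.75-fold and EPHA2 rose 3.73-fold to 182 ± 7.85 FPKM. ERBB3 fell 19.6-fold from 115 ± 10.4 to 5.89 ± 1.42 FPKM and EPHA3 fell 21.0-fold.

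Of 18 tested loci of the FGF, VEGF and PDGF families and related factors 6 rose and 5 fell (median 0.20). PDGFB, PDGFA, VEGFC and the vasoactive peptide ADM rose 14.4-fold, 8.11-fold, 4.55-fold and 6.54-fold. FGF13 fell 16.1-fold from 10.8 ± 1.17 FPKM, and ANGPTL4, an inhibitor of lipoprotein lipase, fell 13.3-fold from 4.50 ± 0.808 FPKM. A375 cells carry an activated BRAF, and genes that report or restrain ERK signaling were read as a list. Of 21 tested, 2 were upregulated and 5 were downregulated (median -0.57). The inhibitors SPRY4 and SPRY2 fell 12-fold and 5.75-fold to 8.85 ± 0.840 and 25.5 ± 3.12 FPKM, and the ERK phosphatase DUSP6 fell 2.36-fold, whereas DUSP5 rose 2.98-fold and FOSL1 rose as given above.

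Genes of the neural crest and of glia were often lower in YAP-2SA cells. Of 32 tested, 17 were downregulated and 6 were upregulated, with a median difference of -0.95. Beside SOX10, TFAP2B and S100B, the transcription factor SOX5 was at 58.2, 63.2 and 76.5 FPKM in Control and at 2.53, 4.91 and 4.04 FPKM in YAP-2SA cells, a 17.2-fold fall with no overlap between the groups. In the same list the intermediate filament gene NES fell 18.2-fold to 1.35 ± 0.0334 FPKM and the pioneer factor FOXD3 fell 6-fold. SOX9, the SoxE relative of SOX10, moved the other way, from 0.495, 0.453 and 0.439 FPKM to 10.4, 12 and 8.57 FPKM. The adhesion molecule L1CAM rose 8.13-fold to 101 ± 8.80 FPKM and TFAP2A rose 3.98-fold.

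The melanocyte identity list did not fall as a whole. Of 14 tested members 4 rose and 4 fell (median 0.22), and 10 of the 24 listed were below the filter. MITF, the master regulator of melanocytes and a target of SOX10, was at 5.01, 9.73 and 11 FPKM in Control and at 33.9, 30.1 and 41.0 FPKM in YAP-2SA cells (ratio 4.08, limma adjusted p = 0.000126). GPNMB and SLC24A5, both of the melanosome, rose 3.29-fold and 3.74-fold. The members that fell were SOX10, S100B, ERBB3 and EDNRB. Of 22 tested genes of the dedifferentiated melanoma state 8 rose and 5 fell. AXL, EGFR and SOX9 were among the rises and TNC and SOX2 among the falls, with SOX2 at 8.11 ± 0.480 and 1.76 ± 0.209 FPKM.

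Antigen presentation by MHC class II was the list with the lowest median. Of 15 tested loci 11 were downregulated and none were upregulated, with a median of -3.45, and in the limma fit 1 was higher at an unadjusted p under 0.05. CIITA, the transactivator that switches on class II genes, was at 17.3, 17.2 and 16.8 FPKM in Control and at 0.735, 0.671 and 0.571 FPKM in YAP-2SA cells (difference -3.45 ± 0.10 SE, limma adjusted p = 1.14e-09). CD74, the invariant chain, fell from 1014 ± 26.4 to 38.1 ± 2.55 FPKM. HLA-DMB and HLA-DMA, which load peptides, fell 45.3-fold and 10.1-fold, and HLA-DPA1 and HLA-DPB1 fell 12.8-fold and 3.13-fold. RFX5, which binds class II promoters constitutively, was at 41.4 ± 1.03 and 23.0 ± 0.536 FPKM, a ratio under the threshold. Genes of class I presentation had no call in either direction among 21 tested loci (median 0.03), of which 7 were higher and 5 were lower at an unadjusted limma p under 0.05. B2M was at 733 ± 70.3 and 739 ± 85.0 FPKM, and the shared locus of HLA-B and HLA-C was at 483 ± 62.2 and 248 ± 34.1 FPKM. Part of the HLA reads may be split between related loci.

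Of 37 tested interferon-stimulated genes 5 (13.5%) rose and 3 (8.11%) fell, against 7.44% and 6.69% of all loci, with IFITM2 up 4.52-fold to 97.5 ± 3.97 FPKM and ISG20 down 6.10-fold to 15.9 ± 1.42 FPKM. Of 42 tested cytokines, chemokines and receptors 13 rose and 6 fell. The 13 became 8 without YAP-2SA replicate 2, where genes that passed the filter through the YAP-2SA libraries alone were not tested. IL7R was at 2.27, 2.47 and 2.50 FPKM in Control and at 52.4, 65.0 and 60.0 FPKM in YAP-2SA cells, and IL18 rose 18.6-fold to 8.54 ± 0.561 FPKM, while the decoy receptor IL13RA2 fell 5.25-fold from 344 ± 23.9 FPKM. CD274, which encodes PD-L1, rose 4.93-fold to 2.68 ± 0.723 FPKM, and its relative PDCD1LG2 rose from 0.0841 ± 0.0974 to 1.56 ± 0.421 FPKM. CD58, a ligand for T cells and NK cells, fell 2.64-fold to 12.2 ± 1.67 FPKM.

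Secreted and membrane antagonists of developmental pathways moved in both directions. DKK1, an inhibitor of Wnt co-receptors, was at 7.83, 6.53 and 4.91 FPKM in Control and at 160.3, 141 and 151 FPKM in YAP-2SA cells. FSTL3 and FST, which bind activin, rose 6.41-fold to 66.4 ± 6.28 FPKM and 2.46-fold to 117 ± 5.97 FPKM. BAMBI, a decoy receptor for BMP and TGF-beta, fell 13.1-fold and the Wnt antagonist SFRP1 fell 3.48-fold from 83.7 ± 10.5 FPKM. Over the Wnt list 6 of 33 tested rose and 9 fell, including the nuclear effector LEF1, down 5.03-fold. Over the TGF-beta list 5 of 27 rose and 2 (7.41%) fell, the latter a share close to the 6.69% of all loci. Over the BMP list 6 of 23 (26.1%) rose and 7 (30.4%) fell. Over the Notch list 5 of 24 rose and 6 fell, with the target HES1 down 18.2-fold to 0.931 ± 0.574 FPKM and the ligand JAG1 down 3.16-fold.

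Genes of cell division differed by small amounts, nearly all toward higher levels. Of 63 tested genes of mitosis and cytokinesis 50 had a higher level by limma adjusted p alone, against 25.7% of all loci, and 1 a lower level, but 1 gene, ANLN, passed the fold threshold (median difference 0.43). Of 51 tested DNA replication genes 32 were higher by limma adjusted p alone and none lower, also at an unadjusted p under 0.05, with TK1 past the fold threshold at 2.19-fold (median 0.38). MKI67 was at 29.4 ± 2.32 and 40.9 ± 1.98 FPKM. CCND1 was at 123 ± 10.5 and 150.3 ± 9.74 FPKM and MYC was at 10.4 ± 1.16 and 9.29 ± 2.50 FPKM, neither with a call. CDKN1C, the CDK inhibitor p57, fell 15.2-fold from 21.8 ± 1.09 to 1.43 ± 0.205 FPKM. In the BCL2 and IAP families 5 of 19 tested rose and none fell, with 4 lower at an unadjusted limma p under 0.05, and the rises were led on level by the survival gene BCL2L1, which rose 3.29-fold to 82.3 ± 3.39 FPKM. The other rises were of the proapoptotic genes BIK, HRK, BID and BOK, which rose 6.27-fold, 3.90-fold, 2.07-fold and 3.70-fold. The count of rises ran from 4 to 5 with 1 library left out. A member that passed the filter through the YAP-2SA libraries alone could be called only as a rise.

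Few genes of basic metabolism and translation were called. None of 48 ribosomal protein and ribosome biogenesis genes was called (median 0.06), with 10 higher and 5 lower at an unadjusted limma p under 0.05. Among 75 genes of oxidative phosphorylation 1 locus, that of ATP5E and SLMO2, was downregulated (median -0.03). Of 28 tested cholesterol genes 2 (7.14%) rose, close to the 7.44% of all loci, with HMGCS1 up 2.89-fold. By limma adjusted p alone 14 were higher, against 25.7% of all loci (median 0.34). Of 28 tested glycolysis genes 2 (7.14%) rose and 3 (10.7%) fell, against 7.44% and 6.69% of all loci. PFKFB3, which stimulates glycolysis, was among the falls, down 3.02-fold to 12.6 ± 1.05 FPKM. None of 15 housekeeping genes was called (median 0.07), and 5 were higher and none lower at an unadjusted limma p under 0.05, with TBP at 12.9 ± 1.63 and 13.4 ± 0.836 FPKM.

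Keratins of simple epithelia rose in YAP-2SA cells, while E-cadherin, encoded by CDH1, stayed near 0. KRT18 was at 199, 163 and 176 FPKM in Control and at 1073, 1165 and 1254 FPKM in YAP-2SA cells, and its partner KRT8 was at 9.58, 10.2 and 11.4 FPKM and at 142, 163 and 137 FPKM. KRT7 rose 7.05-fold to 36.4 ± 4.62 FPKM, and KRT14, of basal epithelia, fell 15.8-fold to 0.434 ± 0.102 FPKM. CDH1 was at 0.0204 ± 0.0171 and 0.0944 ± 0.0319 FPKM and CDH2, or N-cadherin, at 41.6 ± 1.77 and 34.4 ± 1.93 FPKM. The desmosomal plaque gene PKP2 rose 26.0-fold to 24.9 ± 0.682 FPKM. Of the 12 epithelial markers 7 were tested, of which 4 rose, including KRT5 at 1.56 ± 0.168 FPKM, and 2 fell, KRT14 and the CLDN4 locus, and EPCAM, ESRP1 and GRHL2 stayed below 0.2 FPKM in mean. The count of rises ran from 3 to 4 with 1 library left out. Among regulators of epithelial-mesenchymal transition 3 of 13 tested rose and 4 fell, with PRRX1 down 51.3-fold and ZEB1 at 8.44 ± 1.83 and 7.51 ± 1.20 FPKM.

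**Figure D4:**
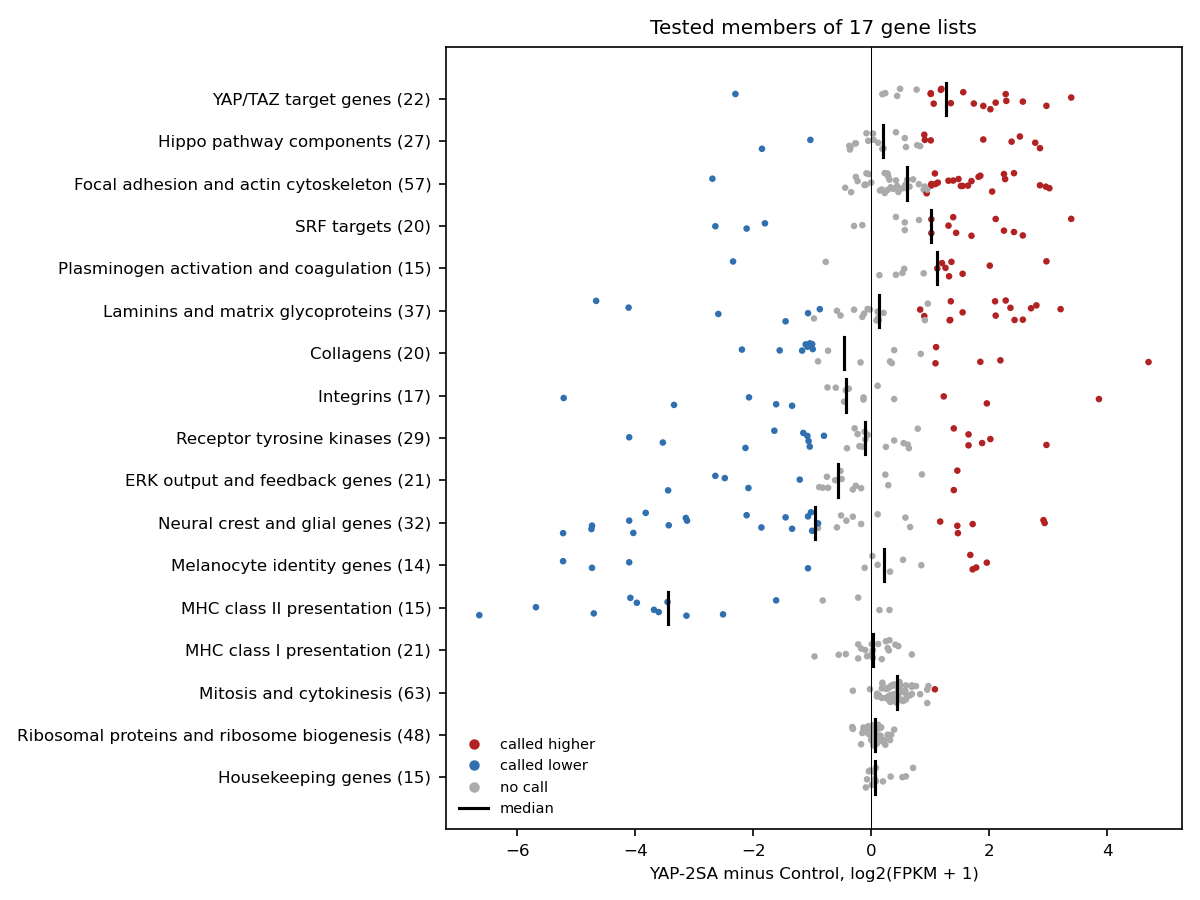
Tested members of 17 gene lists, with the number tested in brackets, plotted by the YAP-2SA minus Control difference in log2(FPKM + 1) on the x axis. Points are loci, red for upregulated, blue for downregulated and gray for no call, and black bars are medians, which run from -3.45 for MHC class II presentation to 1.27 for YAP/TAZ target genes.

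YAP-S127A, which carries 1 of the 2 changes of YAP-2SA, is the construct most like it. YAP1 was at 168 ± 16.5 FPKM in YAP-S127A and 138 ± 9.96 FPKM in YAP-2SA cells, a difference of -0.28 on the log2 scale (limma adjusted p = 0.71, or 0.021 without Control replicate 3 in the fit). Between these constructs 548 protein-coding loci (4.65%) were higher and 613 (5.2%) were lower in YAP-2SA cells. In the comparisons against Control, which share the Control libraries, YAP-S127A had 252 upregulated (2.14%) and 9 downregulated (0.0763%) loci beside the 877 and 789 of YAP-2SA. At KISS1 the mean levels were 0.470 FPKM in Control, 24.9 in YAP-S127A, 155 in YAP-2SA and 0.465 in YAP-S127A,S94A cells, and YAP-2SA exceeded YAP-S127A by 2.60 (limma adjusted p = 1.2e-06). At CTGF they were 12.5, 24.8, 57.9 and 11.2 FPKM. At AXL they were 45.4, 93.1, 187 and 40.0 FPKM.

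Among the 15 genes with the largest fall the YAP-S127A mean lay between those of Control and YAP-2SA, but nearer to Control on the log2 scale. YAP-S127A minus Control ran from -0.12 at NFATC2 to -1.11 at S100A1, against 1.39 to 4.15 for the 15 rises. YAP-S127A and Control did not differ at a limma adjusted p under 0.05 for SOX10, SDC3, TFAP2B, S100B, TNC, SLC26A2, GAS7 and NFATC2. SOX10 was at 263 ± 25.6 FPKM in Control, 224 ± 33.7 in YAP-S127A, 272 ± 19.1 in YAP-S127A,S94A and 6.16 ± 1.44 in YAP-2SA cells, and YAP-2SA was lower than YAP-S127A by a difference of -4.99 (limma adjusted p = 6e-09). CIITA was at 17.1, 14.2, 15.5 and 0.659 FPKM in the same order, and WWTR1 at 199, 161, 213 and 58.8 FPKM. For MITF the order was 8.59, 13.5, 6.51 and 35 FPKM. Each of the 30 genes named for size differed from YAP-S127A in the direction of its change (limma adjusted p under 0.05, against 20.3% of loci higher and 15.1% lower), a count that uses the same YAP-2SA libraries that chose these genes. Not every list gene differed between YAP-2SA and YAP-S127A cells at a limma adjusted p under 0.05, which does not show equal levels. LAMA1, a laminin chain picked after its values were seen, was at 0.0408 ± 0.0126 FPKM in Control, 2.69 ± 1.06 in YAP-S127A and 3.61 ± 1.37 in YAP-2SA cells (difference between the mutants 0.32, limma adjusted p = 0.338).

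Leaving out Control replicate 3 moved few values. The median absolute shift of the difference was 0.035 over 11768 protein-coding loci, against 0.77 for YAP1, and 7 loci shifted further than YAP1, all of which list more than 1 gene. KISS1 changed from 6.75 to 6.81, CTGF from 2.11 to 2.12, SOX10 from -5.22 to -5.17, HLA-DRA from -5.68 to -5.69 and MITF from 1.96 to 2.15. Of the called loci 29 upregulated and 58 downregulated ones lost their call, among them TEAD4, FN1, SMURF2, E2F7, TCF7L2 and the IGF1R locus, and 40 and 16 others gained one. The count of downregulated receptor tyrosine kinases went from 9 to 7, and the other list counts changed by at most 1.

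**Figure D5:**
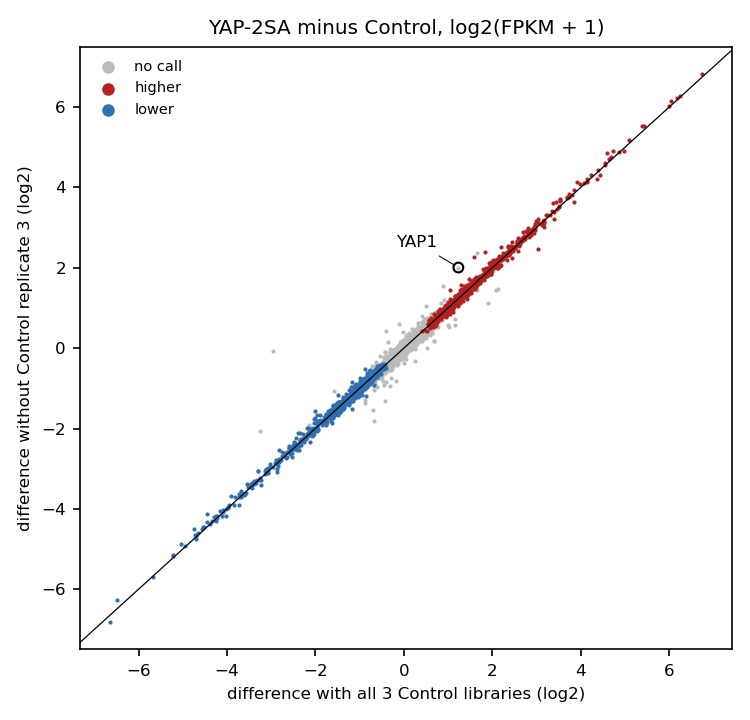
The YAP-2SA minus Control difference in log2(FPKM + 1) of each protein-coding locus with all 3 Control libraries (x axis) and without Control replicate 3 (y axis), colored by the call with all libraries. Nearly all loci lie on the line of equal values, and YAP1 lies above it, at 1.23 and 2.01.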

How the data were processed

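RNA was sequenced from 12 cultures of A375 cells, and the 6 Control and YAP-2SA libraries were compared. The deposited values are log2(FPKM + 1) per locus, which the authors made with bcl2fastq 2.15.0, Bowtie2 2.0.0, TopHat2 2.0.4 and Cufflinks 2.0.2 on hg19, per the submitters' processing notes. No counts were used, so depth is unknown and no counting interval was given. The FPKM of the libraries summed to 790865 to 901558, with 20161 to 20656 loci above 0.

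Of 31588 entries 3 identical ones were removed. Loci with at least 1 FPKM in at least 3 of 12 libraries were tested, which left 15055 loci, of which 11788 were protein-coding. A locus that passed this filter through the YAP-2SA libraries alone could be called only as a rise. limma 3.58.1 (R 4.3.3) was fitted with an intensity trend and 1 mean per group over all 12 libraries, and p-values were adjusted over all tested loci by the Benjamini-Hochberg method. Loci were called where the ratio of mean FPKM was over 2 and the adjusted p was under 0.05. The fit was tested on simulated data first. An exact permutation test of 3 against 3 libraries cannot go below p = 0.1 and was not used.

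The text names YAP1, the 15 largest rises and falls among called loci with 1 protein-coding symbol whose groups did not overlap, and, of each gene list, called members by size and members with a defining role. The members and lists were chosen with earlier results of these data known. Promoters came from a RefSeq table (GRCh38.p14) and gene positions from GRCh37. Alternatives changed the libraries, filter, pseudocount, scaling, thresholds, intensity trend and replicate block. Tables were made with Python 3.11.15.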

Additional observations from a re-analysis of the deposited data

How the results depend on the processing

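The counts of 877 upregulated and 789 downregulated protein-coding loci stayed within 1.5 times under median-ratio scaling (851 and 806), quantile normalization (845 and 800), a pseudocount of 0.1 (875 and 791), no intensity trend (876 and 789), an adjusted p under 0.01 (856 and 757), a fit of the 6 libraries alone (872 and 717) and a fold over 2 on the log2(FPKM + 1) scale (687 and 564). A minimum of 5 FPKM in 3 libraries gave 512 and 474 loci, which tests fewer loci, no filter gave 1445 and 1049, and no fold threshold gave 3024 and 2355. With 1 of the 12 libraries left out the counts ran from 709 to 896 and from 747 to 805. The upregulated counts were 742, 709 and 746 without YAP-2SA replicates 1, 2 and 3. The filter of 3 libraries was kept there, so loci that passed it through the YAP-2SA libraries alone were not tested. With the replicate number as a block they were 879 and 790. Same-numbered Control and YAP-2SA libraries deviated with r of 0.126, 0.00782 and -0.0342 across loci, and differently numbered ones with r from -0.0915 to 0.0903. These values cannot show whether same-numbered cultures were handled together. The block was not used as the main design.

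Of 5025 pairs of a named gene and an alternative, 4964 kept direction and call, 35 lost the call and 22 gained it. Another 35 pairs are not among these, because the gene was not tested in that alternative. B2M, which was not called at a difference of 0.01, was at -0.01 under median-ratio scaling, -0.03 under quantile normalization, -0.06 without Control replicate 1 and -0.07 without YAP-2SA replicate 2. The calls of TEAD4, E2F7, SMURF2, FLNA, BID and ANLN, with ratios near 2, were lost under quantile normalization, and the call of the HLA-B and HLA-C locus was gained there with a difference of -1.03. FN1 lost its call without any 1 of the YAP-2SA libraries or Control replicate 3, TEAD4 also without Control replicate 2 or YAP-2SA replicate 2, FLNA without Control replicate 2 or YAP-2SA replicate 1, and AMOTL1 without YAP-2SA replicate 1. The causes were not tested. Of 2668 pairs of a list's count and an alternative 163 moved by more than 1.5 times, most of them without the fold threshold or with another filter. Leaving out 1 library moved the count of higher mitosis genes from 1 to between 2 and 4 (without Control replicate 1 or 2, or YAP-2SA replicate 1 or 2), of higher fatty acid and lipid genes from 5 to 3 (without any 1 YAP-2SA library), of higher lysosome genes from 2 to 4 (without YAP-2SA replicate 1) and of lower Hippo components from 2 to 1 (without YAP-2SA replicate 1). Other list counts that moved by more than 1.5 times did so by 1. Changes within 1.5 times included lower receptor tyrosine kinases from 9 to 7, higher SRF targets from 11 to 9 and higher ATF4 and ER stress genes from 6 to 8. The counts of higher matrix proteases, cytokines and TEAD factors with their cofactors are given with their lists. In the window of 250 bases before the start site alone GGAATG was in 13.5%, 8.7% and 9.9% of the promoters of upregulated, downregulated and all genes. Depth was not known, so no counting error can be given for calls near the filter of 1 FPKM.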

Other observations

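Further gene groups are given here by their counts, to be read against the 7.44% of all protein-coding loci that were upregulated and the 6.69% that were downregulated. Of 21 tested S100 and annexin genes 4 rose and 4 fell (median difference 0.21), and ANXA3, a calcium-dependent phospholipid-binding protein, rose from 0.0286 ± 0.0252 to 8.28 ± 0.185 FPKM while S100A13 fell from 374 ± 18.7 to 151 ± 3.94 FPKM. Of 11 tested genes of IGF binding 2 rose and 3 fell (median -0.22). IGFBP6 rose 4.68-fold to 332 ± 6.70 FPKM and IGFBP4 rose 4.18-fold to 276 ± 9.40 FPKM, whereas IGFBP5 fell 14.1-fold from 18.6 ± 2.67 FPKM. Of 40 tested axon guidance loci 9 rose and 5 fell (median 0.16), with the secreted semaphorins SEMA3F and SEMA3A up 11.1-fold and 6.51-fold and the semaphorin receptor NRP2 down 4.07-fold.

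Of 12 tested serpin loci 1 rose and 6 fell (median -0.42). SERPINB7 rose from 0.252 ± 0.0531 to 7.83 ± 0.389 FPKM, and SERPINF1, the antiangiogenic factor PEDF, fell 6.61-fold from 9.10 ± 0.915 FPKM. Of 15 tested metastasis suppressor loci 5 (33.3%) rose and 1 (6.67%) fell (median 0.18), with KISS1 first in size and DLC1 up 5.75-fold to 23.3 ± 1.68 FPKM. Of 37 tested ATF4 and ER stress genes 6 rose and 1 fell (median 0.29), among them the amino acid transporter SLC7A5, up 2.36-fold to 274 ± 39.5 FPKM. Of 28 tested p53 targets 4 rose and none fell (median 0.31), with 3 lower at an unadjusted limma p under 0.05, and PLK2 rose 3.25-fold to 148 ± 24.9 FPKM.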
